A study of Mus musculus with 30 samples.

Results

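Transcripts of 6 Ly6 surface antigen genes, Ly6a, Ly6c1, Ly6c2, Ly6d, Ly6e and Ly6k, were examined in mouse tumour cells exposed to interferons or to a STING agonist. These genes were chosen by name from the 49315 genes counted, with earlier results of these data known. Of the 6, 5 had at least 10 reads summed over the 24 bulk RNA sequencing libraries, and Ly6k had none. B16F10 is a mouse melanoma line and 6694c2 is a line derived from pancreatic ductal adenocarcinoma (PDAC) of female mice that carried, among other alleles, a floxed copy of p53, Pdx-cre and a floxed YFP reporter. Cells of each line were cultured for 24 h with vehicle, IFNγ (100 ng/mL), IFNβ (1000 U/mL) or STING agonist (225 μg/mL), which gave 8 groups of 3 libraries. The sources used here do not say what the vehicle was, or whether the 3 libraries of a group came from separate cultures, so p-values measure only the spread between these libraries. The series also holds 6 single-cell samples, which were not analysed here.

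Ly6 antigens are small proteins held at the outer cell surface by a glycosylphosphatidylinositol (GPI) anchor, and they share a compact, disulphide-bonded fold with the urokinase receptor uPAR. Most were first defined with antibodies that mark blood cell lineages. Ly6a is stem cell antigen Sca-1, which marks haematopoietic stem cells and activated lymphocytes. Ly6c1 and Ly6c2 encode the closely related Ly6C antigens used to mark monocytes and some T cells and endothelial cells. Ly6e is broadly expressed and is known for altering the entry of several viruses. Ly6d marks early B lineage cells and stratified epithelium, and Ly6k is a testis antigen needed for sperm function. Type I interferons such as IFNβ signal through Ifnar1 and Ifnar2 to transcription factors that include Stat2 and Irf9, and IFNγ signals through Ifngr1 and Ifngr2. STING is a sensor protein whose activation leads cells to make type I interferon.

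All 6 genes lay on chromosome 15 (GRCm38). In order along the chromosome they were Ly6d (chr15:74762056-74763620, minus strand), Ly6k (chr15:74796874-74799986, minus), Ly6e (chr15:74955051-74959905, plus), Ly6a (chr15:74994877-74998031, minus), Ly6c1 (chr15:75044018-75048830, minus) and Ly6c2 (chr15:75108158-75111970, minus). Reads summed over the 24 libraries were 130828 for Ly6e, 30713 for Ly6a, 4539 for Ly6c1, 205 for Ly6d and 21 for Ly6c2. Reads of Ly6c1 and Ly6c2 are the hardest to keep apart, because their coding sequences were 97.7% identical, with 387 identical positions of 396 and no gap. Ly6a and Ly6c1 were 82.0% identical in coding sequence, and Ly6a and Ly6e 52.7%. The start of the Ly6c1 and Ly6c2 coding sequences (GENCODE M21, bases 1 to 240 from the start codon) is printed here because it holds 6 of the positions at which the genes differ, which are in capitals.
Ly6c1 coding: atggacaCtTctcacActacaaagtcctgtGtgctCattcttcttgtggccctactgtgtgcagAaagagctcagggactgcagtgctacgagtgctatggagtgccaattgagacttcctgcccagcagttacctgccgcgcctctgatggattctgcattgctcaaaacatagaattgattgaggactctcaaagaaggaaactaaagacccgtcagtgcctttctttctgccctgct
Ly6c2 coding: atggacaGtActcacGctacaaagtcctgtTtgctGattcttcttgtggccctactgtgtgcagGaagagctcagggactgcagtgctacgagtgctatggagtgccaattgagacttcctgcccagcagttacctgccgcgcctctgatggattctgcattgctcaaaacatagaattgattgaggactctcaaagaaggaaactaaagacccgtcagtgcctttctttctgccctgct
After base 65 of this stretch the printed sequences are the same, so a read wholly within the rest of it could not be assigned to either gene by its bases. Of all 100-base windows of the Ly6c1 transcripts, 9.06% occurred unchanged in a Ly6c2 transcript, and 5.81% of the Ly6c2 windows occurred in a Ly6c1 transcript.

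The 24 libraries held 15543131 to 32266795 reads assigned to genes. Levels are given as CPM, counts per 1000000 reads of TMM-scaled library size, and changes are log2 fold changes from edgeR's quasi-likelihood test with the Benjamini-Hochberg adjustment over 21138 genes, called at an adjusted p under 0.05. Each line expressed the markers of its labelled cell type. The summed level of 7 melanocyte markers was 14676 to 18545 CPM in B16F10 and 18.5 to 129.1 CPM in 6694c2, and that of 7 ductal epithelial markers was 12817 to 15105 CPM in 6694c2 and 14.7 to 137.1 CPM in B16F10. Blood and vessel cells carry Ly6 antigens too, so their markers were measured. The summed level of 10 leukocyte markers was 2.23 to 3.95 CPM in the 6694c2 libraries, where Cd3e was at 0 reads, and 6.03 to 9.27 CPM in the B16F10 libraries, most of it Lyz2. The summed level of 6 endothelial markers in 6694c2 was 0.238 to 1.05 CPM. Neither sum in 6694c2 separated the interferon groups from vehicle, and in bulk RNA a change in the number of cells that carry a transcript and a change in the amount per cell cannot be told apart.

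In 6694c2 cells, 3 of the 6 genes rose with both interferons. Ly6e rose most with IFNβ, Ly6a and Ly6c1 rose most with IFNγ, and Ly6d and Ly6c2 were not called with either. With IFNβ, 18.2% of all genes tested were called and 10.4% were called higher, and with IFNγ 13.5% were called and 7.89% were called higher.

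**Figure D1:**
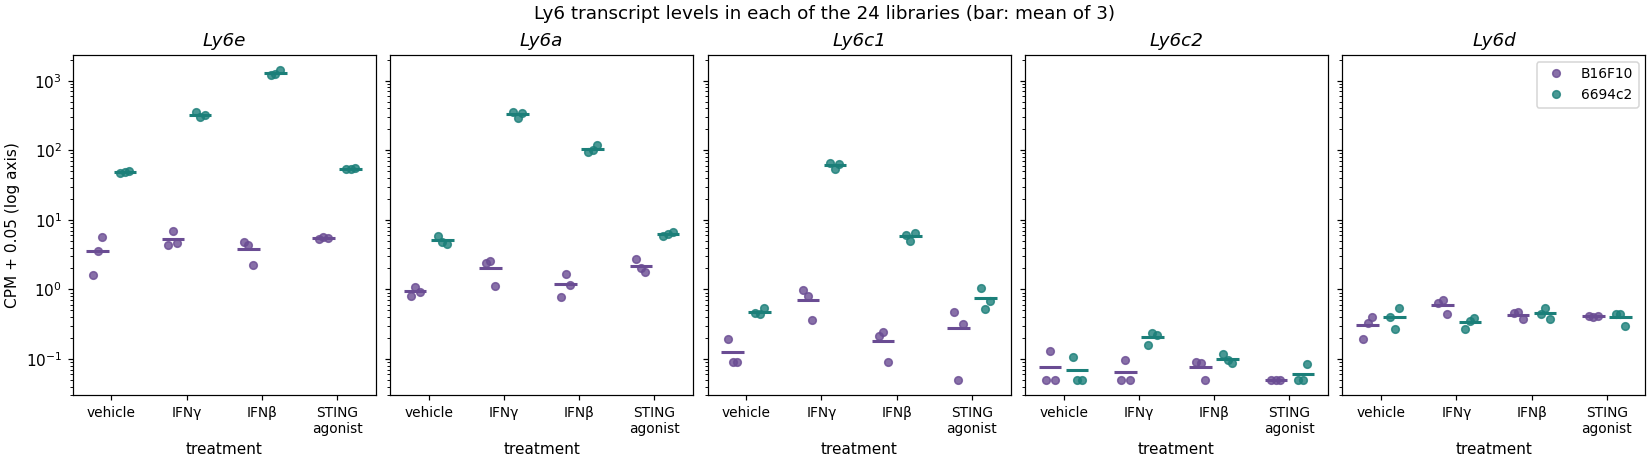
Levels of Ly6e, Ly6a, Ly6c1, Ly6c2 and Ly6d in each library (CPM + 0.05, log axis) by treatment, with B16F10 in purple and 6694c2 in green, points for libraries and bars for the mean of 3. In 6694c2, Ly6e reached 1288 CPM with IFNβ and Ly6a reached 329.9 CPM with IFNγ, while the B16F10 means of both genes stayed between 0.890 and 5.47 CPM.

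Ly6e was the most abundant of the 6 in untreated 6694c2 cells, at 47.6, 48.4 and 51.0 CPM in the vehicle libraries. IFNβ brought it to 1192, 1266 and 1407 CPM, and IFNγ to 357, 302 and 317 CPM. The 3 groups did not overlap, and each IFNβ library was over every IFNγ library. The log2 fold change against vehicle was 4.75 with IFNβ (SE 0.08, edgeR adjusted p = 1.45e-37), a 26.9-fold rise that ranked 152 from the highest of 21138 genes. With IFNγ it was 2.75 (SE 0.08, edgeR adjusted p = 6.82e-30), a 6.71-fold rise. IFNβ against IFNγ gave 2.01 (SE 0.07, edgeR adjusted p = 1.32e-25), where 7.30% of all genes were called higher and 6.57% lower with IFNβ.

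Ly6a ranked the interferons the other way round. Its vehicle libraries held 5.89, 4.74 and 4.45 CPM. IFNγ brought it to 350, 291 and 349 CPM, and IFNβ to 94.4, 100.3 and 117 CPM. None of these 3 groups overlapped, and every IFNγ library was over every IFNβ library. The rise was 66.2-fold with IFNγ (log2 6.05, SE 0.11, edgeR adjusted p = 2e-36) and 21.1-fold with IFNβ (log2 4.40, SE 0.11, edgeR adjusted p = 6.86e-32). IFNβ against IFNγ gave a log2 fold change of -1.65 (SE 0.08, edgeR adjusted p = 8.75e-21).

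Ly6c1 had the largest fold change of the 6 genes, from the lowest start of the 3 that rose. It was counted at 7, 7 and 8 reads in the vehicle libraries, or 0.409, 0.391 and 0.488 CPM. IFNγ libraries held 1189, 874 and 1856 reads, or 66.1, 53.6 and 63.1 CPM, and IFNβ libraries 183, 107 and 177 reads, or 6.09, 4.84 and 6.52 CPM. The groups did not overlap, and every IFNγ library was several times over every IFNβ library. With IFNγ the log2 fold change was 7.15 (SE 0.19, edgeR adjusted p = 5.38e-31), rank 32 of 21138 genes. With IFNβ it was 3.79 (SE 0.24, edgeR adjusted p = 7.11e-17), and IFNβ against IFNγ gave -3.36 (SE 0.12, edgeR adjusted p = 6.06e-26).

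**Figure D2:**
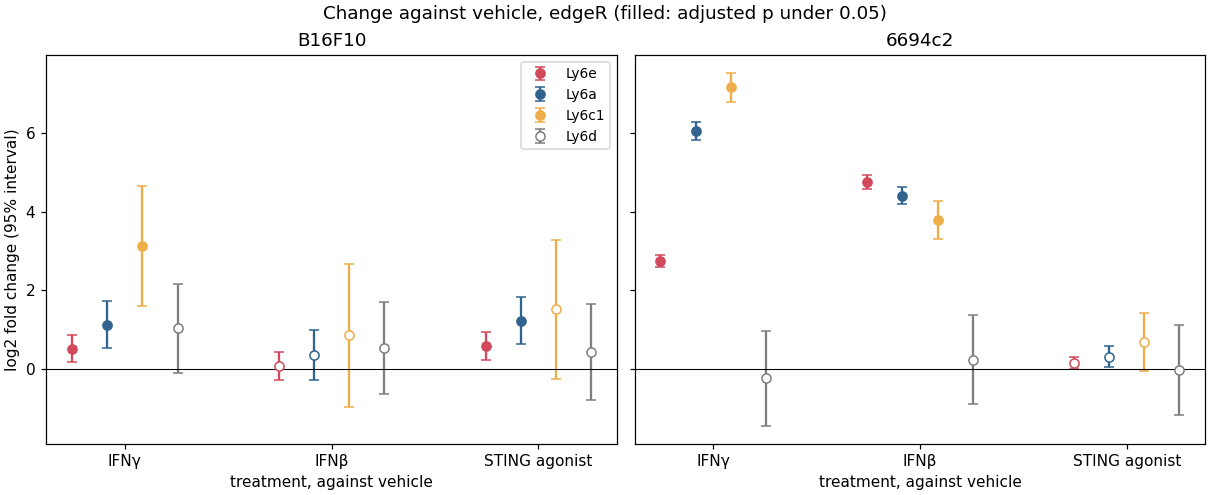
Log2 fold change against vehicle with its 95% interval for Ly6e, Ly6a, Ly6c1 and Ly6d, by treatment, in B16F10 (left) and 6694c2 (right), with filled points for adjusted p under 0.05. In 6694c2 the order of the genes turns over between IFNγ (Ly6c1 7.15, Ly6a 6.05, Ly6e 2.75) and IFNβ (Ly6e 4.75, Ly6a 4.40, Ly6c1 3.79).

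Genes of unequal length were compared as RPKM, which is CPM per kilobase of counted gene length. In vehicle-treated 6694c2 cells Ly6e stood at 12.95 ± 0.478 RPKM (SD, n = 3), Ly6a at 4.17 ± 0.634 and Ly6c1 at 0.256 ± 0.0308. The Ly6e level per length was thus 3.16 ± 0.547 times that of Ly6a (SD, n = 3). With IFNγ this ratio fell under 1, to 0.315 ± 0.0220, as Ly6a reached 274 ± 28.1 RPKM and Ly6e 85.9 ± 7.51. With IFNβ it was 3.96 ± 0.112, at 340 ± 28.8 RPKM for Ly6e and 86.2 ± 9.76 for Ly6a. By this measure Ly6a was the leading Ly6 gene with IFNγ, and Ly6e with vehicle, IFNβ and STING agonist. The order with IFNγ depends on the counted lengths, which were 3784 bases for Ly6e and 1205 for Ly6a. In CPM, Ly6e (325.2) and Ly6a (329.9) were close with IFNγ. The lengths of the transcripts that the cells made were not determined. The ratio of Ly6a to Ly6c1 was 7.54 ± 0.157 with IFNγ and 25.1 ± 3.64 with IFNβ, and the ranges of the 3 libraries did not overlap.

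**Figure D3:**
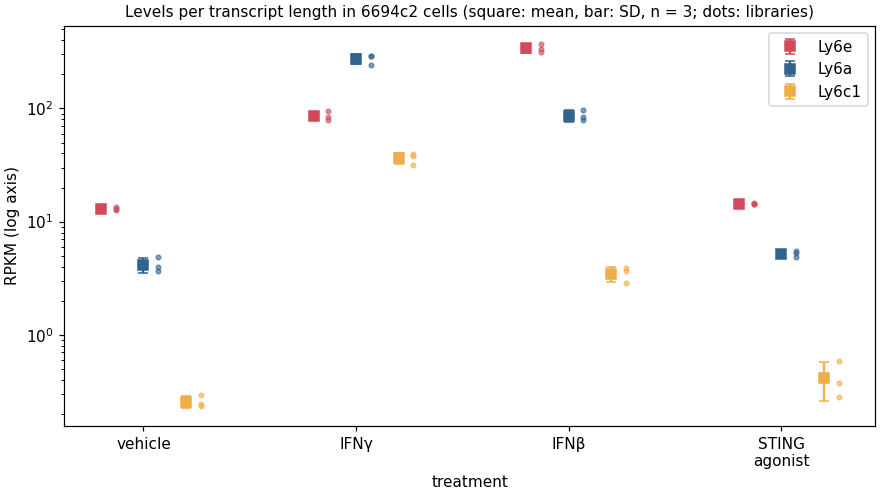
Levels of Ly6e, Ly6a and Ly6c1 in 6694c2 cells per kilobase of counted length (RPKM, log axis) by treatment, with squares for the mean, bars for the SD of 3 libraries and dots for libraries. Ly6a is over Ly6e with IFNγ (274 against 85.9 RPKM), and Ly6e is over Ly6a in the other 3 groups.

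The STING agonist left the same genes near their vehicle level in 6694c2 cells. Ly6e was at 54.6, 53.9 and 54.7 CPM, each over the highest vehicle library. Ly6a was at 5.87, 6.31 and 6.58 CPM and Ly6c1 at 0.985, 0.469 and 0.634 CPM, and both overlapped the vehicle range. None of the 6 was called by edgeR or by DESeq2, and 2 had an unadjusted edgeR p under 0.05. Over all genes, 0.360% were called in this comparison by adjusted p. The share of all genes with an unadjusted p under 0.05 is not given here, so the count of 2 has no background beside it. The log2 fold change of Ly6e was 0.15 (95% interval 0.0035 to 0.305, edgeR adjusted p = 0.631), that of Ly6a 0.32 (0.051 to 0.585, edgeR adjusted p = 0.501) and that of Ly6c1 0.68 (-0.053 to 1.42, edgeR adjusted p = 0.675).

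Ly6c2, the near copy of Ly6c1, was barely counted. Over the 3 libraries of each 6694c2 group it had 1 read with vehicle, 10 with IFNγ (2, 3 and 5), 4 with IFNβ (2, 1 and 1) and 1 with STING agonist. In B16F10 the groups held 2, 1, 2 and 0 reads with vehicle, IFNγ, IFNβ and STING agonist. It passed the read minimum with 21 reads, of which 10 came from 1 group. Per read sequenced, IFNγ over vehicle in 6694c2 gave a ratio of 8.08 with a 95% counting interval of 1.15 to 351, and IFNβ over vehicle gave 2.60 (0.257 to 128). edgeR called neither. Of the reads given to Ly6c1 or Ly6c2 in the IFNγ group, 0.254% were given to Ly6c2 (10 of 3929 reads, exact binomial 95% interval 0.122 to 0.468%). The deposited counts do not show how reads that match both were treated. The intervals cover counting error only.

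The sequence before each gene start is shown for this pair, since the data set one member far over the other. The RefSeq promoter table (GRCm38.p6) matched Ly6c1 and Ly6c2 and not Ly6a, Ly6d, Ly6e or Ly6k. It held 2 windows for each of the pair, and not all of them are printed. Each sequence is the 250 bases before a RefSeq start on the minus strand, at chr15:75048838-75049087 for Ly6c1 and chr15:75111972-75112221 for Ly6c2. Capitals mark the longest run of bases the printed windows share, 20 bases.
Ly6c1 promoter: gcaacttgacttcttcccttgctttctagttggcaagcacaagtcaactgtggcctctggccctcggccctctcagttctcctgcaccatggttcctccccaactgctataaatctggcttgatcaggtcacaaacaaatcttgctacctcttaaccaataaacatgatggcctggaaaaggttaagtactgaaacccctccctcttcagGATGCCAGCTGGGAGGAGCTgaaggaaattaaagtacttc
Ly6c2 promoter: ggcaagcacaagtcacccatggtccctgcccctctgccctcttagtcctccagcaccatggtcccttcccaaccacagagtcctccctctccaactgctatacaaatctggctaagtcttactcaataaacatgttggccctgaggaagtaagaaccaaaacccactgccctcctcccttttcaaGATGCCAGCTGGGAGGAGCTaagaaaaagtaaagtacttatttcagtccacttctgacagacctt
In a local alignment the printed windows were identical at 164 of 228 columns (71.9%), with 12 gap columns. Neither printed window held, on either strand, the interferon-stimulated response element searched as GAAA and GAAA with any 2 bases between, or the gamma-activated site searched as TTC and GAA with any 3 bases between. These patterns were found in 2.98% and 7.02% of the 32851 promoter windows in the table.

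Ly6d was low in every group, at 0.144 to 0.657 CPM over the 24 libraries and 3 to 16 reads per library. Its group means in 6694c2 were 0.354 ± 0.132 CPM with vehicle, 0.290 ± 0.0607 with IFNγ, 0.410 ± 0.0834 with IFNβ and 0.346 ± 0.0859 with STING agonist (SD, n = 3), and these ranges overlapped. In B16F10 the IFNγ libraries held 0.586, 0.657 and 0.396 CPM against 0.144, 0.281 and 0.352 CPM with vehicle. Those groups did not overlap, but the log2 fold change of 1.03 (SE 0.57) was not called (edgeR adjusted p = 0.214), where 22.8% of all genes were called. Ly6k was at 0 reads in all 24 libraries, which allows up to 0.0999 to 0.184 CPM depending on the library.

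In B16F10 cells the 6 genes were low throughout, under 7 CPM in every library. With vehicle, Ly6e was 13.3-fold higher in 6694c2 than in B16F10 (log2 3.74, SE 0.17, edgeR adjusted p = 3.4e-22), Ly6a 5.59-fold (log2 2.48, SE 0.24, edgeR adjusted p = 7.91e-12) and Ly6c1 5.74-fold (log2 2.52, SE 0.75, edgeR adjusted p = 0.00359). In this comparison 28.7% of all genes were called higher in 6694c2. B16F10 levels this low can hold reads that belong to the other line. For each B16F10 library, the share of the 6694c2 level was therefore taken as the median over 157 genes that 6694c2 expressed and B16F10 hardly did. It was 0.167% ± 0.0446 with vehicle, 0.269% ± 0.107 with IFNγ, 0.320% ± 0.151 with IFNβ and 0.816% ± 0.124 with STING agonist (SD, n = 3). In 6694c2 the matching share of the B16F10 level, over 91 genes, was 0.190 to 0.557% by group, which times the B16F10 level came to at most 0.0293 CPM for Ly6e, Ly6a and Ly6c1 in any group.

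With IFNγ, Ly6c1 in B16F10 went from 3, 1 and 1 reads to 25, 16 and 7 reads, or from 0.144, 0.0401 and 0.0391 CPM to 0.916, 0.751 and 0.308 CPM. The groups did not overlap, and the log2 fold change was 3.13 (SE 0.77, edgeR adjusted p = 0.000521). Ly6a held 2.35, 2.49 and 1.06 CPM against 0.765, 1.04 and 0.860 CPM with vehicle, so the lowest IFNγ library was only just over the highest vehicle library (log2 1.13, SE 0.30, edgeR adjusted p = 0.00161). Ly6e held 4.36, 6.85 and 4.58 CPM against 1.58, 3.53 and 5.59 CPM, and these ranges overlapped. Its log2 fold change of 0.52 (SE 0.18, edgeR adjusted p = 0.0186) fell to 0.19 without the first vehicle library (edgeR adjusted p = 0.58) and to 0.29 without the second IFNγ library (0.344), and DESeq2 did not call it (adjusted p = 0.374). The share of the 6694c2 level, times the 6694c2 level with the same treatment, came to 0.164 CPM for Ly6c1, 0.888 CPM for Ly6a and 0.875 CPM for Ly6e in the IFNγ group, beside measured means of 0.658, 1.96 and 5.26 CPM. Less that product, the log2 fold change was 1.78 for Ly6c1, 0.27 for Ly6a and 0.32 for Ly6e. The share times the mean of the 4 6694c2 groups came to 0.0457 CPM for Ly6c1, 0.299 CPM for Ly6a and 1.155 CPM for Ly6e, and less this product the log2 fold change was 2.29, 1.13 and 0.51. Both sets of subtracted values add 0.1 CPM to each group mean, beside a Ly6c1 mean of 0.0742 CPM with vehicle. For Ly6c1 they are therefore not on the scale of the edgeR value of 3.13. How much of the drop came from the added 0.1 CPM was not separated.

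With IFNβ, none of the 6 genes was called in B16F10 by edgeR or DESeq2, and none had an unadjusted edgeR p under 0.05, while 24.0% of all genes were called. Ly6e held 4.80, 4.37 and 2.22 CPM, within the spread of the vehicle libraries (log2 0.07, 95% interval -0.286 to 0.428). Ly6a held 0.727, 1.61 and 1.09 CPM (log2 0.37, 95% interval -0.265 to 0.996), and Ly6c1 4, 5 and 1 reads (log2 0.86, 95% interval -0.956 to 2.67). For Ly6e, the share of the 6694c2 level with IFNβ came to 4.12 CPM on average, beside a measured mean of 3.80 CPM. In B16F10, IFNβ against IFNγ called Ly6c1 alone among the 6 (log2 -2.27, SE 0.69, edgeR adjusted p = 0.0109), where 7.85% of all genes were called lower. That call was lost without the first IFNγ library (adjusted p = 0.129) and without the third IFNβ library (0.0673), and DESeq2 gave no adjusted p for it.

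The STING agonist was followed by 2 calls in B16F10, where 1.93% of all genes were called higher. Ly6a held 2.69, 1.95 and 1.75 CPM, each over the vehicle libraries (log2 1.23, SE 0.31, edgeR adjusted p = 0.00471). Ly6e held 5.26, 5.63 and 5.52 CPM, close to the highest vehicle library at 5.59 CPM and over the other two (log2 0.58, SE 0.18, edgeR adjusted p = 0.041). Ly6c1 held 7, 0 and 5 reads and was not called (log2 1.52, SE 0.90, edgeR adjusted p = 0.492). The share of the 6694c2 level was highest in these libraries. Times the mean of the 4 6694c2 groups it came to 3.50 CPM for Ly6e and 0.908 CPM for Ly6a, and times the STING agonist group of 6694c2 to 0.444 CPM and 0.0510 CPM. Less the first product, Ly6e was lower than with vehicle (log2 -0.51) and Ly6a was 0.72 higher, and less the second, Ly6e was 0.52 and Ly6a 1.15 higher on the log2 scale. The groups of 6694c2 from which such reads would come were not determined. The Ly6e call did not hold in DESeq2 (adjusted p = 0.597) or without any 1 of these libraries or of the first and second vehicle libraries (edgeR adjusted p 0.0529 to 0.69), and the Ly6a call was lost without the first STING agonist library (edgeR adjusted p = 0.0792).

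**Figure D4:**
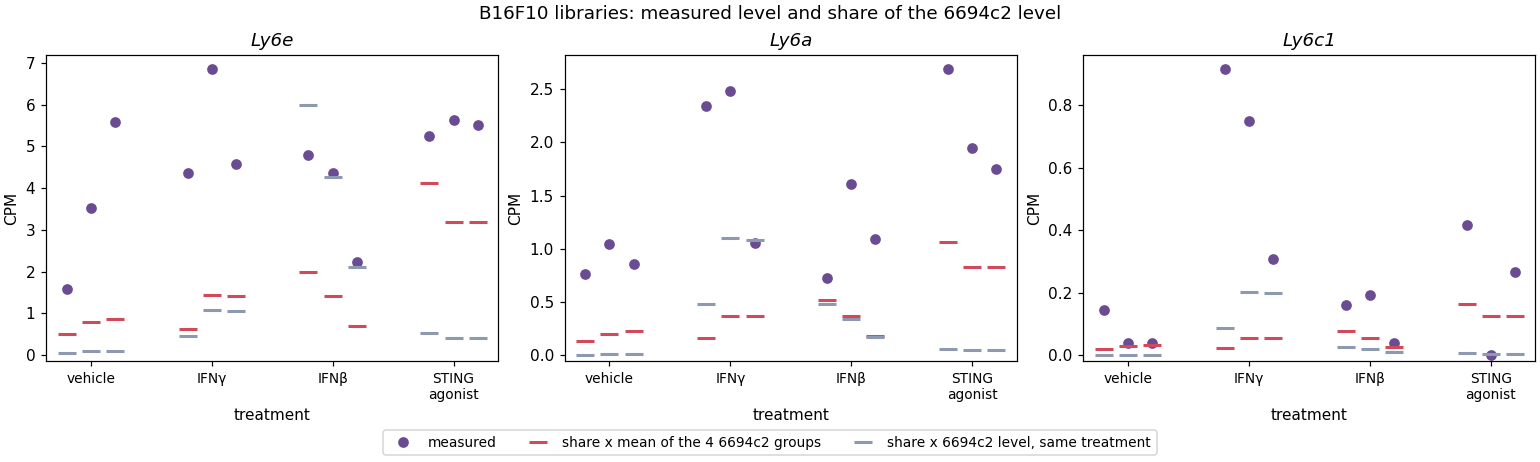
Measured levels of Ly6e, Ly6a and Ly6c1 in each B16F10 library (points, CPM) with the share of the 6694c2 level in that library, times the mean of the 4 6694c2 groups (red) or the 6694c2 group with the same treatment (grey). With IFNβ the grey marks of Ly6e average 4.12 CPM against measured points that average 3.80 CPM, and with STING agonist the red marks average 3.50 CPM against 5.47 CPM.

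The interferon effects were then compared between the lines in 1 model of all 24 libraries. The IFNβ effect on Ly6e was 4.66 larger on the log2 scale in 6694c2 than in B16F10 (SE 0.27, edgeR adjusted p = 1.11e-16), and that on Ly6a 4.01 larger (SE 0.38, edgeR adjusted p = 2.21e-10). For Ly6c1 the difference of 2.89 (SE 1.21) was not called by edgeR (adjusted p = 0.121) and was called by DESeq2 (adjusted p = 0.00775), where B16F10 held 5 and 10 reads in the groups compared. In that comparison 6.16% of all genes were called with a larger effect in 6694c2. The IFNγ effect was larger in 6694c2 for Ly6a (4.90, SE 0.39, edgeR adjusted p = 1.41e-12), Ly6e (2.23, SE 0.26, edgeR adjusted p = 2.39e-08) and Ly6c1 (3.97, SE 1.22, edgeR adjusted p = 0.0299), against 4.52% of all genes. The Ly6c1 difference was not called without the first B16F10 vehicle library (3.28, edgeR adjusted p = 0.351). For the STING agonist none of the 6 differed by edgeR or DESeq2, with 2.12% of all genes called by adjusted p. An unadjusted edgeR p under 0.05 was found for 1, and the share of all genes under that threshold is not given here. The nearest was Ly6a, with an effect 0.91 lower in 6694c2 as a log2 difference of -0.91 (95% interval -1.59 to -0.233, edgeR adjusted p = 0.188).

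The interferon signalling genes were measured beside them. Of 11 listed and tested, 7 rose and none fell with IFNβ in 6694c2, and 6 rose and 1 fell with IFNγ, beside 18.2% and 13.5% of all genes called. In B16F10, 7 rose and 1 fell with IFNβ, and 8 rose and 1 fell with IFNγ, beside 24.0% and 22.8%. Irf1, a transcription factor induced early by IFNγ, rose with IFNγ by 5.69 on the log2 scale in B16F10 (SE 0.07, edgeR adjusted p = 1.66e-244) and by 4.71 in 6694c2 (SE 0.08, edgeR adjusted p = 3.92e-37). Stat2, which acts with Irf9 in the type I pathway, rose with IFNβ by 4.16 in B16F10 (SE 0.08, edgeR adjusted p = 2.79e-180) and by 4.70 in 6694c2 (SE 0.12, edgeR adjusted p = 7.8e-32). Transcripts of the pathway thus rose in B16F10 in the same libraries in which the Ly6 genes stayed under 7 CPM.

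Within the chromosome 15 interval from Ly6d to Ly6c2, 349915 bases long, 22 genes were counted, 8 reached the read minimum and 7 had no read. Besides the 5 Ly6 genes, the tested genes were 2010109I03Rik, Gm6610 and Ly6i, with 19, 15 and 14 reads over the 24 libraries, and none of them was called in any comparison against vehicle. Ly6i, another Ly6 gene between Ly6e and Ly6a, averaged 0.165 CPM with IFNγ in 6694c2 and was at 0 reads in both vehicle groups. Ly6k, Cyp11b1 and Cyp11b2 lay between Ly6d and Ly6e at 0 reads. High levels in 6694c2 were thus held by Ly6e, Ly6a and Ly6c1, which follow each other along the chromosome among sparsely counted genes.

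**Figure D5:**
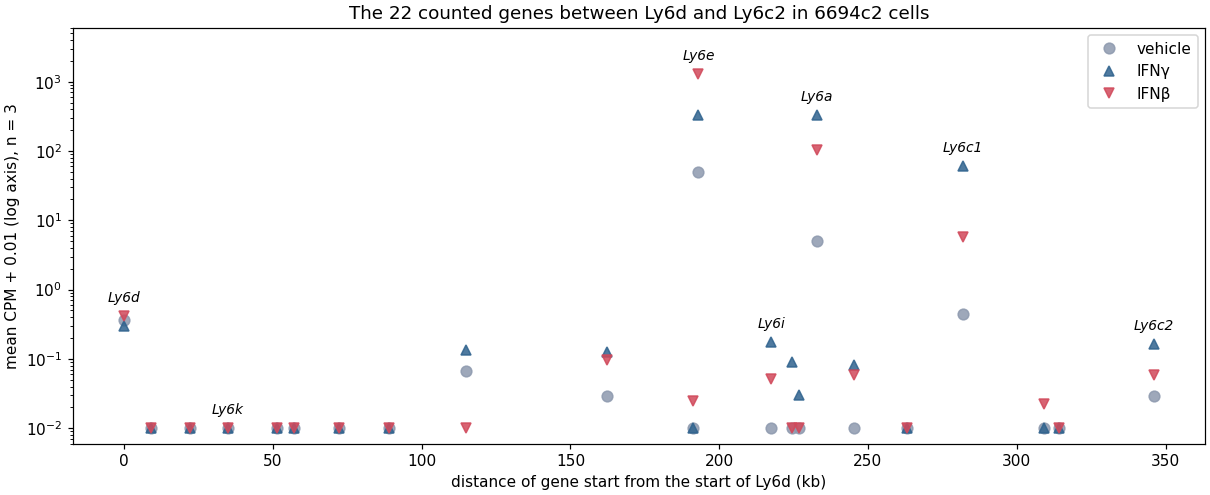
Mean level (CPM + 0.01, log axis, n = 3) in 6694c2 cells of the 22 counted genes from Ly6d to Ly6c2, by the distance of each gene's start from the start of Ly6d in kilobases, with vehicle in grey, IFNγ in blue and IFNβ in red. Ly6e, Ly6a and Ly6c1 stand over the rest, and the triangles of IFNβ are over those of IFNγ for Ly6e (1288 against 325 CPM) and under them for Ly6a and Ly6c1.

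Other members of the Ly6/uPAR family were measured too. Of 41 listed, 37 were counted and 23 tested, and in 6694c2 2 rose with IFNβ and 2 with IFNγ. These counts were near the shares of all genes called higher, 10.4% and 7.89%. With IFNβ these were Lypd8, a gut epithelial antigen (log2 1.17, SE 0.31, edgeR adjusted p = 0.0046), and Plaur, the urokinase receptor itself (0.25, SE 0.07, edgeR adjusted p = 0.00649). With IFNγ they were Lynx1, a modulator of nicotinic acetylcholine receptors (0.87, SE 0.12, edgeR adjusted p = 5.98e-07), and Slurp1, a secreted keratinocyte protein (0.65, SE 0.15, edgeR adjusted p = 0.00149). Slurp1 also rose with STING agonist in 6694c2 (0.73, SE 0.15, edgeR adjusted p = 0.00653), where 0.360% of all genes were called. In B16F10, Lypd8 (1.21), Ly6g5c (0.63) and Plaur (0.22) rose with IFNβ, and Cd59a, an inhibitor of complement lysis, fell by 0.28 with IFNβ and by 0.45 with IFNγ on the log2 scale, beside 24.0% and 22.8% of all genes called. Between vehicle groups 7 of the 23 were called higher in 6694c2, near the share of all genes called higher (28.7%), and 4 were called lower. Plaur averaged 264 CPM in 6694c2 and 24.6 CPM in B16F10 (log2 3.43, SE 0.09, edgeR adjusted p = 1.78e-31), and Cd59a 0.0999 and 23.1 CPM (log2 -7.82, SE 0.26, edgeR adjusted p = 4.68e-27). Psca, an antigen of prostate and pancreatic tumours, had 25 reads over the 24 libraries and was not called in any comparison against vehicle. Between the vehicle groups it was called higher in 6694c2 (edgeR adjusted p = 0.0387), at 0.0981 CPM against 0 reads in B16F10. The median log2 fold change of the 23 was 0.25 with IFNβ and 0.65 with IFNγ in 6694c2, beside 0 over all genes tested. These medians include genes near the read minimum. Ly6i, with 14 reads and 0 CPM in both vehicle groups, passed that minimum through the interferon groups of 6694c2. The medians therefore do not show a shift of the family.

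The genes that build and attach the GPI anchor moved in both directions. Of 29 tested of 30 listed, 4 rose and 4 fell with IFNβ in 6694c2, and 2 rose and 2 fell with IFNγ, beside 18.2% and 13.5% of all genes called. Mppe1 and Pgap2, which remodel the anchor after it is attached, rose with both, Mppe1 by 0.90 with IFNβ (SE 0.07, edgeR adjusted p = 1.56e-13) and by 1.0 with IFNγ (SE 0.07, edgeR adjusted p = 7.25e-15). Pgap1, which removes an acyl chain from the anchor, fell by 0.95 with IFNβ (SE 0.09) and by 0.51 with IFNγ (SE 0.09). In B16F10, 9 rose and 4 fell with IFNβ and 7 rose and 3 fell with IFNγ, beside 24.0% and 22.8% of all genes called. There Gpaa1, a subunit of the enzyme that joins protein to anchor, fell by 0.77 with IFNβ (SE 0.07, edgeR adjusted p = 5.54e-24), and Pigh, which acts in the first step of anchor synthesis, rose by 0.78 (SE 0.11, edgeR adjusted p = 1.06e-10).

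The genes whose pattern was most like each Ly6 gene were listed by Pearson's r of log2(CPM + 1) over the 24 libraries, after subtracting each line's vehicle mean, among 13353 genes. The libraries share their lines, treatments and scaling, so r is a description only. For Ly6a the nearest were Gm8995 (r = 0.988), AW112010 (0.986) and Apol7a (0.985), an apolipoprotein L gene. For Ly6c1 they were Casp1, an inflammasome protease (0.985), Selp, the adhesion molecule P-selectin (0.974), and AW112010 (0.968). For Ly6e they were Spats2l (0.972), Irf7, a transcription factor of the type I interferon response (0.970), and Cfb, complement factor B (0.969). Among themselves, Ly6a and Ly6c1 had r = 0.959, Ly6a and Ly6e 0.856, and Ly6c1 and Ly6e 0.696. Like Ly6e, Irf7 was far higher in 6694c2 with IFNβ (962 CPM) than with IFNγ (76.9 CPM), and Casp1, like Ly6c1, was higher with IFNγ (11.1 CPM) than with IFNβ (3.07 CPM).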

How the data were processed

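Paired-end RNA sequencing reads of 24 cell culture libraries were trimmed with cutadapt 1.14, aligned with STAR 2.7.9a and counted per gene with Rsubread by the authors, who deposited raw counts per gene in 1 table per library. The build follows from the gene coordinates in the tables, which are GRCm38: 91.4% of genes had the start, end and strand of GENCODE M21. Strand setting and treatment of reads that match several genes are not given in the sources used here, so genes with near copies (Ly6c1, Ly6c2) and overlapping genes are uncertain.

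Genes with at least 10 reads over the 24 libraries were kept (21138 of 49315), and edgeR 4.0.16 with TMM (R 4.3.3, limma 3.58.1) was fitted to the 12 libraries of each line, or to all 24 for comparisons between lines, with an adjusted p threshold of 0.05. DESeq2 1.42.0 was the other tool. On simulated counts for IFNβ against vehicle (21138 genes), 95 of 100 genes changed by a log2 of 1 were recovered in B16F10 and 92 of 100 in 6694c2, with 24 and 23 false calls. The changed genes were drawn only from genes over a minimum mean level. Ly6d, Ly6c2 and, in B16F10, Ly6c1 lay under it, so the recovery does not apply to them. Depth was 15543131 to 32266795 counts per library. Libraries of a group differed by more than sampling noise (chi-square per degree of freedom 2.99 to 20.4), so none was treated as a copy of another. That spread does not show whether they came from separate cultures.

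The share of the other line's level used genes with a vehicle mean of at least 50 CPM in 1 line. In the other line, the lowest of the 4 group means had to be under 0.5% of that. This choice limits the share in the lowest group. The log2 fold changes less that share used a pseudocount of 0.1 CPM, added to each group mean, and have no test. They are not on the scale of the edgeR values where levels are low. The 6 genes and all lists were chosen with earlier results of these data known. Of each list, at most 4 genes called with the smallest p per comparison against vehicle were named, with Cd59a, Plaur and Psca always, the tested genes of the interval, and the 3 genes most like each Ly6 gene that reached 1 CPM. Values of Ly6i, Cyp11b1 and Cyp11b2 were chosen for print after they were seen. Some items are not reported here.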

Additional observations from a re-analysis of the deposited data

Results flagged for a closer look

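For 5 combinations of gene and interferon, the effect differed between the lines by the interaction test of edgeR over all 24 libraries. With IFNβ the log2 effect was larger in 6694c2 than in B16F10 by 4.66 for Ly6e and by 4.01 for Ly6a. With IFNγ it was larger by 4.90 for Ly6a, by 3.97 for Ly6c1 and by 2.23 for Ly6e. In each of the 3 6694c2 libraries per interferon group, the level was over every vehicle library of that line. The share of the 6694c2 level in the B16F10 libraries, given in the report, moves the B16F10 side of each difference. Less the share times the mean of the 4 6694c2 groups, these differences ran from 2.216 to 4.938. Ly6a and Ly6e with IFNγ were slightly lower than the values above, and the others were higher. Less the share at the same treatment, they ran from 2.405 to 9.108, and each was higher. The subtracted values are not on the scale of the edgeR values where levels are low. The part of the share in these differences was not tested.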

How the results depend on the processing

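Every call in 6694c2 against vehicle, between its interferons and between the vehicle groups was kept under DESeq2, RLE scaling, other read minimums, the replicate block, a robust fit, a fit of the compared groups only, summed Ly6c1 and Ly6c2, and each library left out. B16F10 counts of called Ly6 genes moved. IFNβ against vehicle gave 0, and 0 to 1 with a library left out, as Ly6e was called without the third vehicle library (log2 0.55). IFNγ against vehicle gave 3, and 2 under DESeq2, under edgeR's filterByExpr and in a robust fit, which did not call Ly6e. STING agonist against vehicle gave 2, but 1 in those same fits, and 0 to 2 with a library left out. IFNβ against IFNγ gave 1, but 0 under DESeq2, where the adjusted p of Ly6c1 was not given, and 0 to 3 with a library left out. The difference of the IFNβ effect between lines gave 2, and 3 under DESeq2 and without a read minimum (Ly6c1). That of the STING agonist effect gave 0, and 1 without a read minimum (Ly6a). Ly6e in B16F10 with IFNβ changed sign, to -0.26, -0.13 and -0.05, without vehicle library 1, IFNβ library 1 or IFNβ library 2. Less the share of the other line's level, Ly6e turned to -0.22 with IFNβ and to -0.51 with STING agonist. The difference of the STING agonist effect on Ly6e between lines turned from -0.43 to 0.66. Less the share at the same treatment, Ly6e turned to -4.39 and Ly6a to -0.11 in B16F10 with IFNβ. Ly6d, never called, changed sign in 6694c2 with a library left out, ranging from -0.0047 to 0.53 with IFNβ, from -0.48 to 0.060 with IFNγ and from -0.27 to 0.27 with STING agonist. The cause was not tested. The same-treatment share was added after seeing the data.

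Same-numbered libraries were not treated as paired in the main fit. The correlation of their deviations from the group means ran from -0.276 to 0.243, and in no comparison did all 3 pairs pass 0.1. In 6694c2 with IFNβ and in B16F10 with IFNγ, 2 of 3 pairs passed it. With 3 libraries per group this check cannot show whether the libraries were paired. With the replicate block, IFNβ against IFNγ in B16F10 called 2 of the Ly6 genes in place of 1, and the block changed no other count of calls. Depth limits Ly6c2, Ly6d, Ly6k and, in B16F10, Ly6c1, where group totals were under 50 reads.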
